A study of Mus musculus with 12 samples.

Results

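The genes Plagl1, Peg3, H19, Dlk1, Grb10, Mest, Ndn, Magel2, Nnat and Impact were followed through the RNA of purified mouse brain myelin from postnatal day 18 (P18) to old age. They were chosen by symbol as imprinted genes of a growth-related network, and all 10 were found among the 21937 genes of the table. Myelin, the stack of membrane that oligodendrocytes wrap around axons, was purified by density gradient from the brains of male, wild-type c57Bl6/N mice at P18, P75, 6 months and 24 months. Each age had 3 libraries, 12 in all, and no group received a treatment or carried an allele that another lacked. At 6 months they came from 3 individual brains. Whether each library of the other ages came from 1 mouse is not given in the sources used here. Each library held 20299052 to 27214385 reads on genes, and 1 read was worth a normalized read count of 0.812 to 1.19.

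An imprinted gene is expressed mainly from the copy inherited from one parent, often by way of a methylation mark set in the germ line. Many such genes control the growth of the embryo and placenta, lie in clusters that share a control region, and fall in most organs after birth while staying active in brain regions such as the hypothalamus. Plagl1 and H19 have been described as regulators of a network of co-expressed imprinted genes. The reads were summed over both parental copies, so nothing here tells which copy was transcribed.

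Promoter windows from RefSeq (250 bases before to 50 bases after the transcription start, GRCm38.p6) matched 8 of the 10 genes by symbol, all but H19 and Impact. They are shown for Plagl1, a transcription factor, for Peg3, the only one of the 8 with a copy of the palindrome reported to bind the Plagl1 zinc fingers, and for Ndn and Magel2, neighbours in one imprinted domain. Capitals mark CpG, the dinucleotide that carries the methylation of imprinted regions, except in the Peg3 window, where they mark the palindrome.
Plagl1, chr10:13090582-13090881, + strand: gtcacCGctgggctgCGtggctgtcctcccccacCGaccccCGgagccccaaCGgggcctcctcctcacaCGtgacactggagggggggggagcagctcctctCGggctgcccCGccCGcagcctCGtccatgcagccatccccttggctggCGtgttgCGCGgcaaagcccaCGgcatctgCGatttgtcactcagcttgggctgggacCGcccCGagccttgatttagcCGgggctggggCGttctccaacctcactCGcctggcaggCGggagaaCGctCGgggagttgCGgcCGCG
Peg3, chr7:6730370-6730669, − strand: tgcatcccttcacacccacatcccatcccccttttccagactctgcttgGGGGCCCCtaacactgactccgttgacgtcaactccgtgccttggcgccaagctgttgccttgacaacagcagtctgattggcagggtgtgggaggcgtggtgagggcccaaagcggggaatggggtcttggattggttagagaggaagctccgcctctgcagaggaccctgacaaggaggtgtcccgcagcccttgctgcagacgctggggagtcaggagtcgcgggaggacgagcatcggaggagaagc
Ndn, chr7:62348027-62348326, + strand: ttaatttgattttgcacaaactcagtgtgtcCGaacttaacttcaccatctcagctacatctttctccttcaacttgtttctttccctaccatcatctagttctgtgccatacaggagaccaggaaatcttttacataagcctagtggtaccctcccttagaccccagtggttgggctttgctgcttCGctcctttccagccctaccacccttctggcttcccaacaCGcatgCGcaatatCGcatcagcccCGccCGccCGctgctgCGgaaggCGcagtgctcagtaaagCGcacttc
Magel2, chr7:62376729-62377028, + strand: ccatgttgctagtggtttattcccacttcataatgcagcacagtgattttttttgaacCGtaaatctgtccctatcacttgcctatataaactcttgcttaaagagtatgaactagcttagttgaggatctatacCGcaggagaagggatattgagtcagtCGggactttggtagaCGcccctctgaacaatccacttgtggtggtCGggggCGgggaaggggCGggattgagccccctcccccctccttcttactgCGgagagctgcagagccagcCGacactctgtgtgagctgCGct
The Plagl1 window held 26 CpG, more than 83.1% of the 32851 windows of the table, whose median was 7. The windows of Ndn and Magel2 were alike, with 11 and 10 CpG and a GC content of 51.0% in both, and that of Peg3 held 13. Letters GGGGCCCC, which read the same on both strands, were searched as the palindrome and occurred once in the Peg3 window and in 354 windows of the table (1.08%). A match of letters does not show that a protein was bound. Methylation was not analysed here.

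The 10 genes differed widely in level and in course. Over the whole span, from P18 to 24 months, Dlk1, Mest, Peg3, Magel2 and Impact rose, Plagl1, Nnat and Ndn fell, Grb10 did not pass the test, and H19 went from 106 reads to 6. The falls of Nnat and Ndn were small (log2 changes -0.27 and -0.21). Neither passed when the libraries were scaled to the same total, and that of Ndn was lost in several other settings. Changes were tested with limma in 1 fit of all libraries, on log2 of the normalized read count plus 1. The fit took in 14634 genes whose mean reached 10, and a change was called at a Benjamini-Hochberg adjusted p under 0.1. All 10 genes passed this filter, H19 only through its P18 libraries. With 3 libraries per age, the smallest p that an exact permutation test could give for any one gene is 0.1. In bulk RNA, fewer cells of a type and less RNA per cell cannot be told apart. Nor can RNA of other cells carried along in the purification be told apart from RNA of myelin itself.

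**Figure D1:**
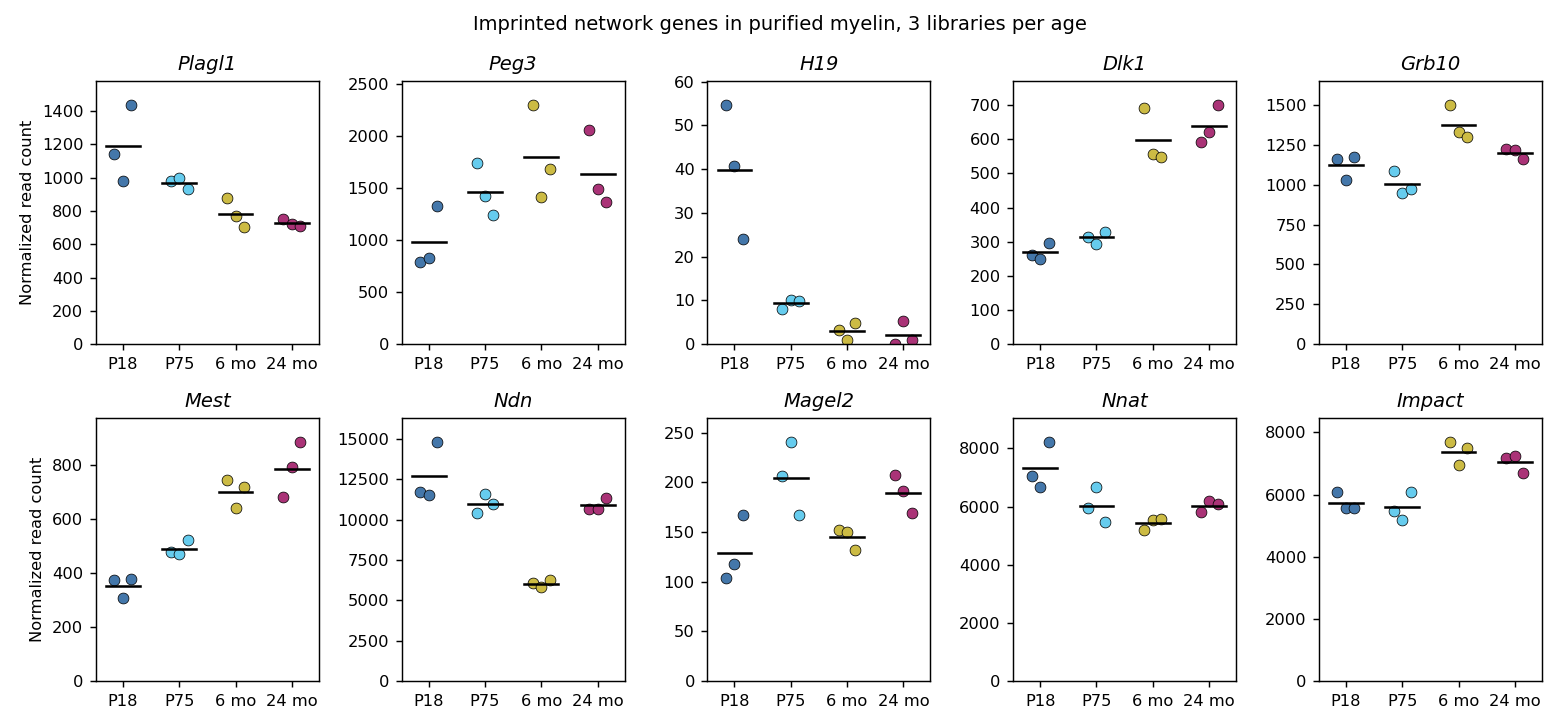
Normalized read count (vertical axis, linear, from 0) of each of the 10 genes in the 12 libraries, grouped by age (P18, P75, 6 months, 24 months; 3 points per age, line at the mean). Dlk1 and Mest climb to the higher ages, H19 and Plagl1 decline, and the 3 Ndn points at 6 months (5807 to 6255) lie far below those of the other ages.

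Plagl1 encodes a paternally expressed zinc finger transcription factor that restrains the cell cycle (chromosome 10, 12810497 to 12851500, + strand, 10 merged exons of 7289 bases, NCBIM37, the build also called mm9, as for all gene positions here). Its normalized read count was 1143, 982 and 1436 at P18, 982, 995 and 934 at P75, 877, 771 and 703 at 6 months, and 750, 722 and 711 at 24 months. The P18 and P75 ranges overlapped, all 6-month values lay below all P75 values, and the oldest libraries lay inside the 6-month range. Plagl1 fell from P18 to 24 months by 0.69 ± 0.12 on the log2 scale (SE, n = 3 per age; limma, adjusted p = 8.02e-05), a 1.61-fold decrease. The fall from P18 to P75 was 0.27 and barely called (log2 change -0.27, limma adjusted p = 0.0711). That call was lost without P18 replicate 3 (log2 change -0.13, limma adjusted p = 0.326), and without P18 replicate 1 or any single P75 library (adjusted p from 0.101 to 0.169). It was also lost in a fit of the 2 ages alone (adjusted p = 0.123) and when the libraries were scaled to the same total (-0.15, adjusted p = 0.462). The decrease from P75 to 6 months (log2 change -0.31, limma adjusted p = 0.0326) was lost without 6-month replicate 3 (log2 change -0.24, limma adjusted p = 0.138).

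Peg3 encodes a large paternally expressed zinc finger protein with roles in cell survival, growth and maternal behaviour (chromosome 7, 6656603 to 6683132, − strand, 10 merged exons of 13314 bases). The counts were 789, 828 and 1327 at P18, 1736, 1422 and 1236 at P75, 2296, 1415 and 1682 at 6 months, and 2053, 1493 and 1364 at 24 months. P18 replicate 3 reached the lowest P75 library, and replicate 1 was the highest of each of the 3 later ages. Peg3 rose from P18 to P75 by 0.60 ± 0.20 on the log2 scale (limma, adjusted p = 0.0262) and from P18 to 24 months by 0.76 ± 0.20 (limma, adjusted p = 0.00413), a 1.69-fold increase without overlap of the libraries. The first of these calls was lost without P18 replicate 1 (log2 change 0.47, limma adjusted p = 0.107) or without P75 replicate 1 (0.48, adjusted p = 0.114). No later step was called.

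H19 is a maternally expressed non-coding RNA that carries Mir675 within its exons (chromosome 7, 149761434 to 149764048, − strand, 4 merged exons of 2372 bases). It had the lowest level per kb of exon of the 10 genes at every age. Its normalized read count was 54.7, 40.7 and 24.1 at P18, 8.02, 10.2 and 9.95 at P75, 3.25, 0.89 and 4.87 at 6 months, and 0, 5.41 and 0.93 at 24 months. These values stood for 106, 28, 10 and 6 reads per age in turn, and the library with no read had a floor of 3 reads, or 2.97 normalized counts. Groups did not overlap between P18, P75 and 6 months, whereas the 2 oldest ages did. The pooled reads were 4.15-fold higher at P18 than at P75 (95% counting interval 2.71 to 6.53) and 19.6-fold higher at P18 than at 24 months (8.70 to 54.5), intervals that cover counting error only. The fitted log2 changes from P18 were -1.91 to P75 and -4.07 to 24 months. Since H19 passed the filter only through its P18 libraries, no test is read from them. From P75 to 6 months the change was -1.52 ± 0.59 (limma, adjusted p = 0.0397), on 28 and 10 reads, and the call was lost without 6-month replicate 2, the library with 1 read (log2 change -1.05, limma adjusted p = 0.174).

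Dlk1 encodes a transmembrane ligand with epidermal growth factor repeats, paternally expressed, that is related to the Notch ligands and holds precursor cells back from differentiation (chromosome 12, 110691033 to 110701546, + strand, 6 merged exons of 5657 bases). Counts of 263, 249 and 295 at P18 were followed by 315, 295 and 328 at P75, 691, 556 and 547 at 6 months, and 593, 623 and 701 at 24 months. The 6 younger and the 6 older libraries formed separate ranges, with the step between P75 and 6 months. There Dlk1 rose by 0.93 ± 0.11 on the log2 scale (limma, adjusted p = 5.46e-06), a 1.90-fold increase exceeded by 6.24% of all genes tested. Over the whole span the gain was 1.25 ± 0.11 (limma, adjusted p = 7.00e-08), 2.37-fold. The step from P18 to P75 (log2 change 0.22, limma adjusted p = 0.125) was called only without P18 replicate 3 (0.29, adjusted p = 0.0509), without 6-month replicate 1 (0.22, adjusted p = 0.0926), or when the libraries were scaled to the same total (0.34, adjusted p = 0.0645).

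Grb10 encodes an adaptor that binds the insulin and IGF1 receptors and dampens their signal, maternally expressed in most tissues and paternally in neurons (chromosome 11, 11830511 to 11938686, − strand, 23 merged exons of 9164 bases). It was measured at 1160, 1033 and 1174 at P18, 1084, 951 and 971 at P75, 1501, 1330 and 1302 at 6 months, and 1223, 1217 and 1160 at 24 months. The 6-month libraries lay above those of every other age, and P18 overlapped with P75 and with 24 months. Grb10 rose from P75 to 6 months by 0.46 ± 0.09 on the log2 scale (limma, adjusted p = 0.000358), 1.37-fold. The lower level at 24 months than at 6 months (log2 change -0.20, limma adjusted p = 0.118) was called without P18 replicate 3 (adjusted p = 0.0862) and in a fit of the 2 ages alone (adjusted p = 0.0802). The P18 to P75 step (log2 change -0.16, limma adjusted p = 0.144) was called without P18 replicate 2 (-0.22, adjusted p = 0.0833) or P75 replicate 1 (-0.22, adjusted p = 0.0808). Between the ends of the span Grb10 differed by 0.10 ± 0.09 (limma, adjusted p = 0.334).

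Mest encodes a paternally expressed membrane protein of the alpha/beta hydrolase fold (chromosome 6, 30673547 to 30698457, + strand, 18 merged exons of 3937 bases). The libraries gave 373, 307 and 377 at P18, 478, 469 and 521 at P75, 744, 641 and 717 at 6 months, and 681, 793 and 887 at 24 months. P18, P75 and 6 months were fully separated, and the 24-month range reached above and into that of 6 months. Mest rose by 0.48 ± 0.11 on the log2 scale from P18 to P75 (limma, adjusted p = 0.0028), by 0.52 ± 0.11 from P75 to 6 months (limma, adjusted p = 0.00106), and by 1.15 ± 0.11 over the whole span (limma, adjusted p = 1.82e-07), 2.23-fold. Its exons share 904 bases with Copg2 on the opposite strand. Whether reads were counted by strand is not given in the sources used here, so reads of the 2 genes in that stretch cannot be told apart.

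Ndn (necdin) encodes a paternally expressed MAGE family protein that restrains proliferation of neural precursors and is lost in Prader-Willi syndrome (chromosome 7, 69493163 to 69494814, + strand, 1 exon of 1652 bases). It had the highest level per kb of exon of the 10 genes at every age. The normalized read count was 11715, 11515 and 14848 at P18, 10403, 11570 and 10963 at P75, 6066, 5807 and 6255 at 6 months, and 10650, 10681 and 11329 at 24 months. The 6-month libraries lay well below those of every other age, and the 24-month libraries were back inside the P75 range.

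The Ndn fall from P75 to 6 months was 0.86 ± 0.10 on the log2 scale (limma, adjusted p = 5.64e-06), 1.82-fold, and 6.14% of all genes tested fell further. The rise from 6 to 24 months was 0.85 ± 0.10 (limma, adjusted p = 0.000209), 1.80-fold, and 2.14% of all genes tested rose further. Both comparisons use the same 3 libraries at 6 months, and both calls held without any single one of them. From P18 to 24 months Ndn fell by 0.21 ± 0.10 on the log2 scale (limma, adjusted p = 0.0829), a call lost without P18 replicate 3 (log2 change -0.09, limma adjusted p = 0.373), without 24-month replicate 1 (-0.20, adjusted p = 0.171) and without 24-month replicate 2 (-0.20, adjusted p = 0.181). It was also lost with no filter on low values (adjusted p = 0.106), in a fit of the 2 ages alone (0.136), with quantile normalization (0.186) and after scaling to the same total (0.416). The step from P18 to P75 (log2 change -0.20, limma adjusted p = 0.131) was called without P18 replicate 2 (-0.27, adjusted p = 0.0794) and with DESeq2 (adjusted p = 0.0896).

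Magel2 encodes another paternally expressed MAGE protein, a partner of the ubiquitin ligase Trim27 in endosomal sorting, and lies beside Ndn (chromosome 7, 69521865 to 69526526, + strand, 1 exon of 4662 bases). Its counts were 103, 118 and 167 at P18, 206, 241 and 167 at P75, 152, 150 and 132 at 6 months, and 207, 191 and 169 at 24 months. All 6-month libraries lay below all libraries of P75 and of 24 months, and the highest P18 value (166.7) came within a fraction of a count of the lowest P75 value (166.9). Magel2 rose from P18 to P75 by 0.67 ± 0.17 on the log2 scale (limma, adjusted p = 0.00476), fell to 6 months by 0.48 ± 0.17 (limma, adjusted p = 0.0245), and was higher at 24 months than at P18 by 0.57 ± 0.17 (limma, adjusted p = 0.0077). The fall was lost without P75 replicate 2 (log2 change -0.36, limma adjusted p = 0.122). The difference between 6 and 24 months was 0.38 ± 0.17 (limma, adjusted p = 0.121). It was called without P18 replicate 3 (adjusted p = 0.0485) or P18 replicate 1 (adjusted p = 0.0952), in a fit of the 2 ages alone (adjusted p = 0.0348), and with edgeR (adjusted p = 0.0971) and DESeq2 (adjusted p = 0.0999).

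Nnat encodes neuronatin, a small paternally expressed membrane proteolipid of the endoplasmic reticulum that acts on calcium handling (chromosome 2, 157385814 to 157388258, + strand, 3 merged exons of 1829 bases). It was at 7048, 6679 and 8234 at P18, 5961, 6690 and 5452 at P75, 5204, 5548 and 5579 at 6 months, and 5819, 6188 and 6079 at 24 months. P18 and P75 overlapped by a few counts, and P18 lay above both later ages throughout. Nnat fell by 0.28 ± 0.10 on the log2 scale from P18 to P75 (limma, adjusted p = 0.0318) and by 0.27 ± 0.10 from P18 to 24 months (limma, adjusted p = 0.0219). The first call was lost without P18 replicate 3 (log2 change -0.19, limma adjusted p = 0.111) or P75 replicate 3 (-0.21, adjusted p = 0.136), and scaling to the same total ended both (adjusted p = 0.375 and 0.196). The gene lies within the span of Blcap on the opposite strand.

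Impact encodes a paternally expressed cytosolic protein that inhibits Gcn2, the kinase that slows translation when amino acids are short (chromosome 18, 13130761 to 13151457, + strand, 11 merged exons of 3432 bases). Libraries held 6080, 5561 and 5561 at P18, 5479, 5191 and 6098 at P75, 7704, 6951 and 7503 at 6 months, and 7172, 7228 and 6705 at 24 months. The younger 2 ages overlapped with each other, as did the older 2, and every older library lay above every younger one. Impact rose from P75 to 6 months by 0.40 ± 0.09 on the log2 scale (limma, adjusted p = 0.00115), 1.32-fold, and from P18 to 24 months by 0.30 ± 0.09 (limma, adjusted p = 0.00788). The P18 to P75 step was -0.04 ± 0.09 (limma, adjusted p = 0.752).

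Counted together, 6 of the 10 genes were called from P18 to P75, where 48.8% of all genes tested were. Of these 6, Peg3, Mest and Magel2 rose (25.9% of all genes tested rose), and Plagl1, H19 and Nnat fell (22.9% fell). From P75 to 6 months 8 of 10 were called, against 60.6% of all genes tested. Dlk1, Mest, Grb10 and Impact rose (31.2% of all genes) and Ndn, Plagl1, H19 and Magel2 fell (29.4%). From 6 to 24 months Ndn alone was called, a rise, where 29.3% of all genes were called, 16.6% higher and 12.7% lower. Over the whole span 9 of 10 were called, against 69.0% of all genes, 5 higher (34.7% of all genes) and 4 lower (34.3%). The median log2 change of the 10 genes was -0.10, 0.07, 0.02 and 0.20 in these comparisons in turn, and that of all genes tested was 0.02, 0.01, 0.03 and -0.01. The share called was above the background in 3 comparisons and below it from 6 to 24 months, and with 10 genes neither was read as a result. H19, which passed the filter only through P18, is 1 of the genes counted as lower in the 2 comparisons with P18 and lends them no support. Its fall counted from P75 to 6 months rests on 28 and 10 reads and lends no support there either. With single libraries left out, 4 to 8 of the 10 genes were called from P18 to P75, 7 to 8 from P75 to 6 months, 1 to 3 from 6 to 24 months and 8 to 9 over the whole span. Of the 14634 genes tested, 6233 to 7325, 7708 to 9467, 2478 to 5323 and 9293 to 10152 were then called in these comparisons in turn.

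**Figure D2:**
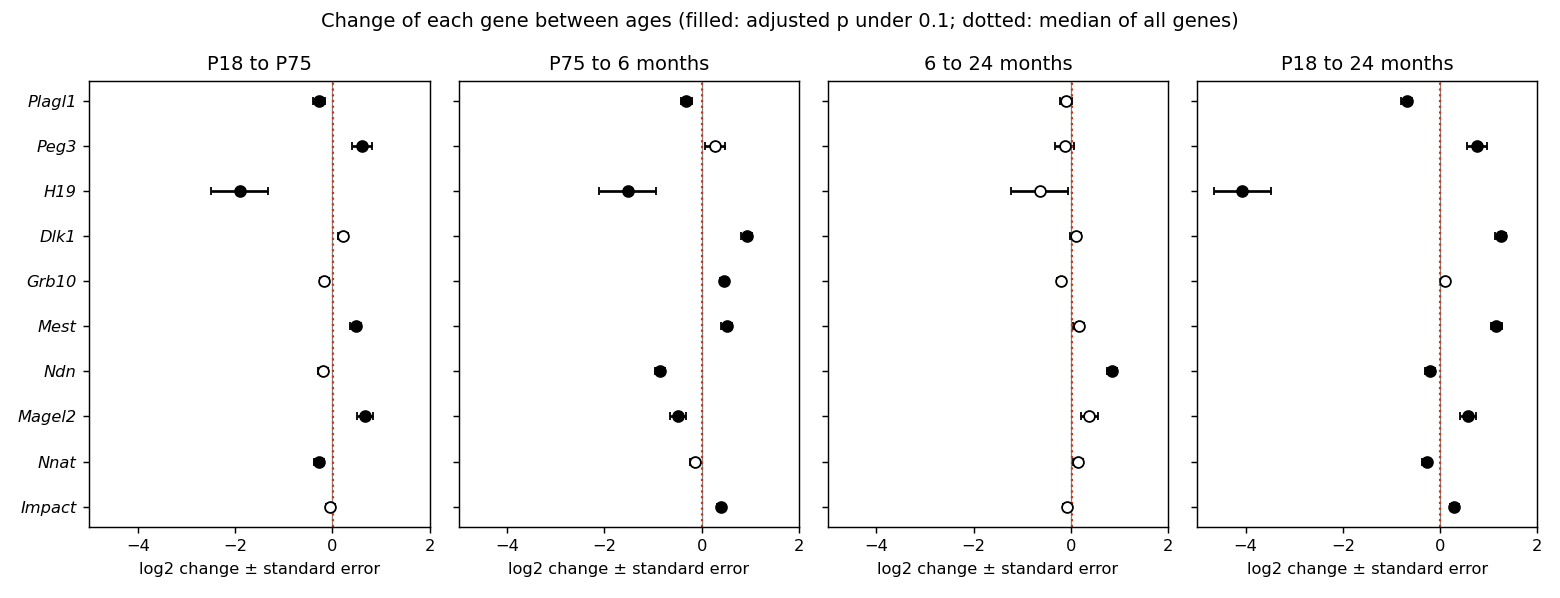
Log2 change (horizontal axis) of each gene with its standard error in the 4 comparisons of ages. Filled points have a limma adjusted p under 0.1, open points do not, the grey line is 0 and the dotted line the median of all genes tested. Ndn is the only filled point from 6 to 24 months (0.85), and H19 reaches -4.07 from P18 to 24 months.

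Without P18 replicate 3, 5 of the 10 genes were called from P18 to P75, 4 higher and 1 lower, and 8 from P18 to 24 months. The 1 lower gene was H19, from which no test is read in a comparison with P18. Plagl1 and Nnat lost their calls. Among all genes tested 7325 and 10112 were called without that library, against 7137 and 10092 in the fit of all libraries. That library stood apart: Mbp took 9.47% of its reads against 15.1% and 20.8% in the other P18 libraries, and it had the highest P18 level of 8 of the 10 genes, all but H19 and Impact, of which it had the lowest. Scaling to the same total also gave 5 calls from P18 to P75, 4 higher and 1 lower, again H19, with 6566 of all genes tested called. It moved the median of all genes in that comparison from 0.02 to 0.14, and the change of Impact to 0.09.

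Levels of different genes were set side by side only per length, as normalized read count per kb of merged exon. At P18 the order was Ndn (7683 ± 1132, SD, n = 3), Nnat (4002 ± 444), Impact (1671 ± 87.4), Plagl1 (163 ± 31.6), Grb10 (122 ± 8.49), Mest (89.5 ± 9.92), Peg3 (73.7 ± 22.5), Dlk1 (47.5 ± 4.24), Magel2 (27.7 ± 7.13) and H19 (16.8 ± 6.45). A gap of about an order of magnitude separated Impact from Plagl1 at P18, and such a gap below the first 3 genes was present at every age. Among neighbours in the P18 order, the ranges of Mest and Peg3 overlapped, as did those of Magel2 and H19, and the other pairs did not. At 24 months Ndn (6590 ± 232), Nnat (3296 ± 104) and Impact (2050 ± 83.6) still led, followed by Mest (200 ± 26.2), Grb10 (131 ± 3.83), Peg3 (123 ± 27.5), Dlk1 (113 ± 9.80), Plagl1 (99.8 ± 2.75), Magel2 (40.6 ± 4.06) and H19 (0.89 ± 1.22). Plagl1 had moved from the fourth to the eighth place and Mest from the sixth to the fourth. At that age Peg3, which spanned 102 to 154 per kb, overlapped with Grb10 above it and Dlk1 below it, and Dlk1 did not overlap with Plagl1. At P75 the order below Impact was Plagl1, Mest, Peg3 and Grb10 (means of 133, 124, 110 and 109 per kb), and the range of each overlapped with the next. At 6 months Ndn (3658 ± 136) and Nnat (2976 ± 114) were closest, without overlap of their libraries.

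**Figure D3:**
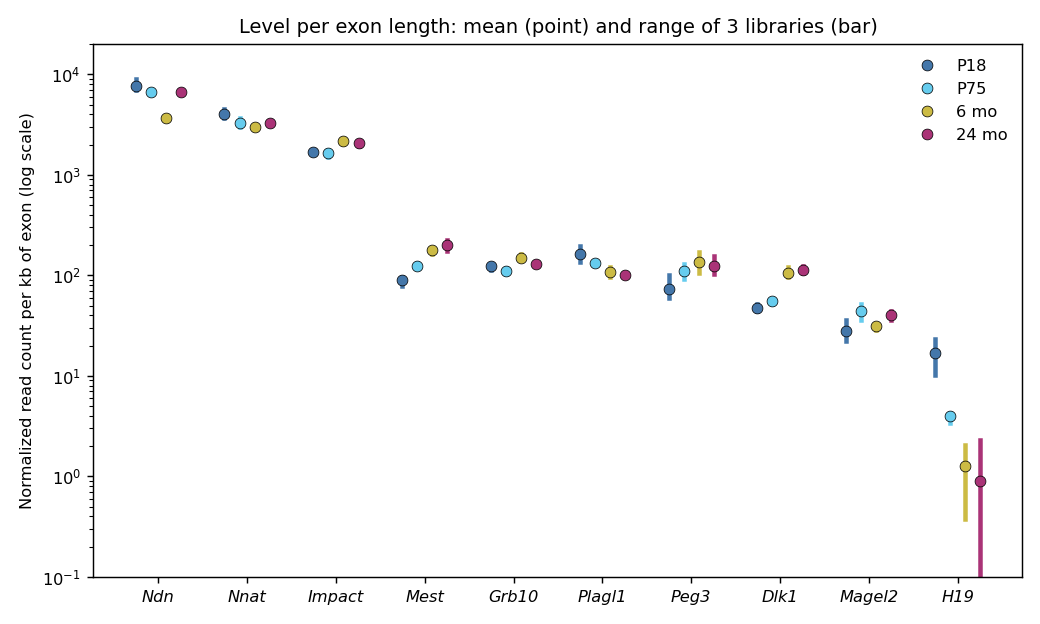
Normalized read count per kb of merged exon (vertical axis, log scale) of the 10 genes at the 4 ages, as the mean (point) and the range of 3 libraries (bar). Ndn, Nnat and Impact lie at 1513 per kb or more in every library and the other 7 genes at 225 or less, and the H19 bar at 24 months runs off the axis because 1 library had no read.

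Genes that share an imprinted domain with one of the 10 are set beside it, and the difference between a gene and its neighbour was not tested. Of 30 domain neighbours listed, 26 were in the table and 20 passed the filter. Of these 20, 4 rose and 8 fell from P18 to P75, 7 rose and 4 fell from P75 to 6 months, 4 rose and 5 fell from 6 to 24 months, and 7 rose and 6 fell over the whole span. Their median log2 change was -0.19, 0.19, -0.02 and 0.20, and the background shares are those given above. Zim3 and Snurf were listed at 0 in every library.

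The Dlk1 domain also makes Meg3, Rian and Mirg, long non-coding RNAs from the maternal copy that host snoRNAs and miRNAs. Meg3 was at 12299, 11280 and 16116 at P18 and at 16321, 18466 and 18228 at 24 months, and it rose from 6 to 24 months by 0.49 ± 0.16 on the log2 scale (limma, adjusted p = 0.0449). Rian fell by 0.35 from P18 to P75 (limma, adjusted p = 0.0184) and by 0.30 to 6 months (adjusted p = 0.0322), then rose by 0.41 (adjusted p = 0.0187). Mirg held 144, 155 and 171 at P18, 216, 189 and 187 at P75, 133, 148 and 177 at 6 months, and 304, 317 and 360 at 24 months. The Mirg rise from 6 to 24 months was 1.10 ± 0.13 (limma, adjusted p = 0.000163), the step in which Dlk1 had a log2 change of 0.10. From P75 to 6 months, where Dlk1 rose by 0.93, Mirg fell by 0.37 (limma, adjusted p = 0.021), Rian fell by 0.30, and Meg3 had a log2 change of 0.18 (adjusted p = 0.363). Rtl1, a paternally expressed retrotransposon-derived gene, fell by 1.10 from P18 to P75 (limma, adjusted p = 0.00288). Dio3, which inactivates thyroid hormone, was called in no comparison.

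In the domain of Ndn and Magel2, Mkrn3, a paternally expressed ubiquitin ligase gene known for its part in the timing of puberty, was at 151, 122 and 259 at P18, 46.1, 47.3 and 56.4 at P75, 43.1, 37.3 and 46.7 at 6 months, and 26.8, 33.5 and 25.9 at 24 months. It fell by 1.74 ± 0.23 on the log2 scale from P18 to P75 (limma, adjusted p = 2.86e-05) and over the whole span it fell by 2.52 ± 0.23 (limma, adjusted p = 9.80e-08). Peg12, a single-exon gene of the same domain, was under the filter, with 70, 15, 11 and 5 reads per age in turn, and its pooled reads were 5.11-fold higher at P18 than at P75 (95% counting interval 2.90 to 9.61). Snrpn fell by 1.11 ± 0.30 (limma, adjusted p = 0.00707) at the first step, rose by 0.92 (adjusted p = 0.0159) and fell by 0.81 (adjusted p = 0.0629). Its counts never exceeded 36.2, Snurf, which shares its transcript, was listed at 0, and reads common to both may have been left out in the counting, so the Snrpn level is uncertain. Ube3a, the ubiquitin ligase gene of Angelman syndrome, changed by no more than 0.19 in any comparison, and that value, a rise from P75 to 6 months, was called (limma, adjusted p = 0.0735). Atp10a rose by 0.50 from P18 to P75 (limma, adjusted p = 0.0209) and fell by 0.56 to 6 months (adjusted p = 0.00833), as Magel2 rose by 0.67 and fell by 0.48. From 6 to 24 months, where Ndn rose by 0.85, the other log2 changes were 0.35 for Atp10a (limma, adjusted p = 0.132), -0.55 for Mkrn3 (adjusted p = 0.102), -0.14 for Ube3a (adjusted p = 0.264) and the Snrpn fall given above.

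Igf2, the growth factor gene expressed from the paternal copy where H19 is expressed from the maternal copy, was at 1403, 1085 and 1160 at P18, 1168, 871 and 828 at P75, 2011, 1882 and 1880 at 6 months, and 1750, 1983 and 2101 at 24 months. It fell by 0.36 ± 0.12 on the log2 scale from P18 to P75 (limma, adjusted p = 0.0299) and rose by 1.03 ± 0.12 to 6 months (limma, adjusted p = 6.07e-06), while the pooled H19 reads went from 106 to 28 to 10. Mrpl23, a ribosomal protein gene at the far side of that domain, rose by 0.34, fell by 0.98 and rose by 0.42 in the 3 steps (limma, adjusted p = 0.0366, 9.76e-06 and 0.028).

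Beside Mest, Copg2, a coat protein gene of Golgi vesicles, differed by 0.01 from P18 to P75, rose by 0.73 ± 0.08 to 6 months (limma, adjusted p = 2.17e-06) and fell by 0.31 to 24 months (adjusted p = 0.0122), whereas Mest rose at the first step and was not called at the last. Tsga14 rose by 0.41 over the whole span (limma, adjusted p = 0.0243). Around Nnat, Blcap fell by 0.19 from P18 to P75 (limma, adjusted p = 0.079) and rose by 0.63 ± 0.08 to 6 months (limma, adjusted p = 1.27e-05), where Nnat had a log2 change of -0.14. Usp29, which lies beside Peg3 and is paternally expressed too, fell by 0.50 ± 0.09 over the whole span (limma, adjusted p = 0.000145) as Peg3 rose by 0.76. Zim1 was called in no comparison. Osbpl1a, the oxysterol-binding protein gene next to Impact, fell by 0.61, rose by 1.14 and fell by 0.46 in the 3 steps (limma, adjusted p = 4.82e-05, 9.29e-08 and 0.00285). Phactr2, beside Plagl1, rose by 0.43 over the whole span (limma, adjusted p = 0.00101) as Plagl1 fell by 0.69. Of the Grb10 neighbours, Ddc, the dopa decarboxylase gene, fell by 0.61 over the whole span (limma, adjusted p = 0.000125), and Cobl, an actin nucleator gene, rose by 0.29 from P75 to 6 months (limma, adjusted p = 0.0275) and fell by 0.27 to 24 months (adjusted p = 0.0774).

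**Figure D4:**
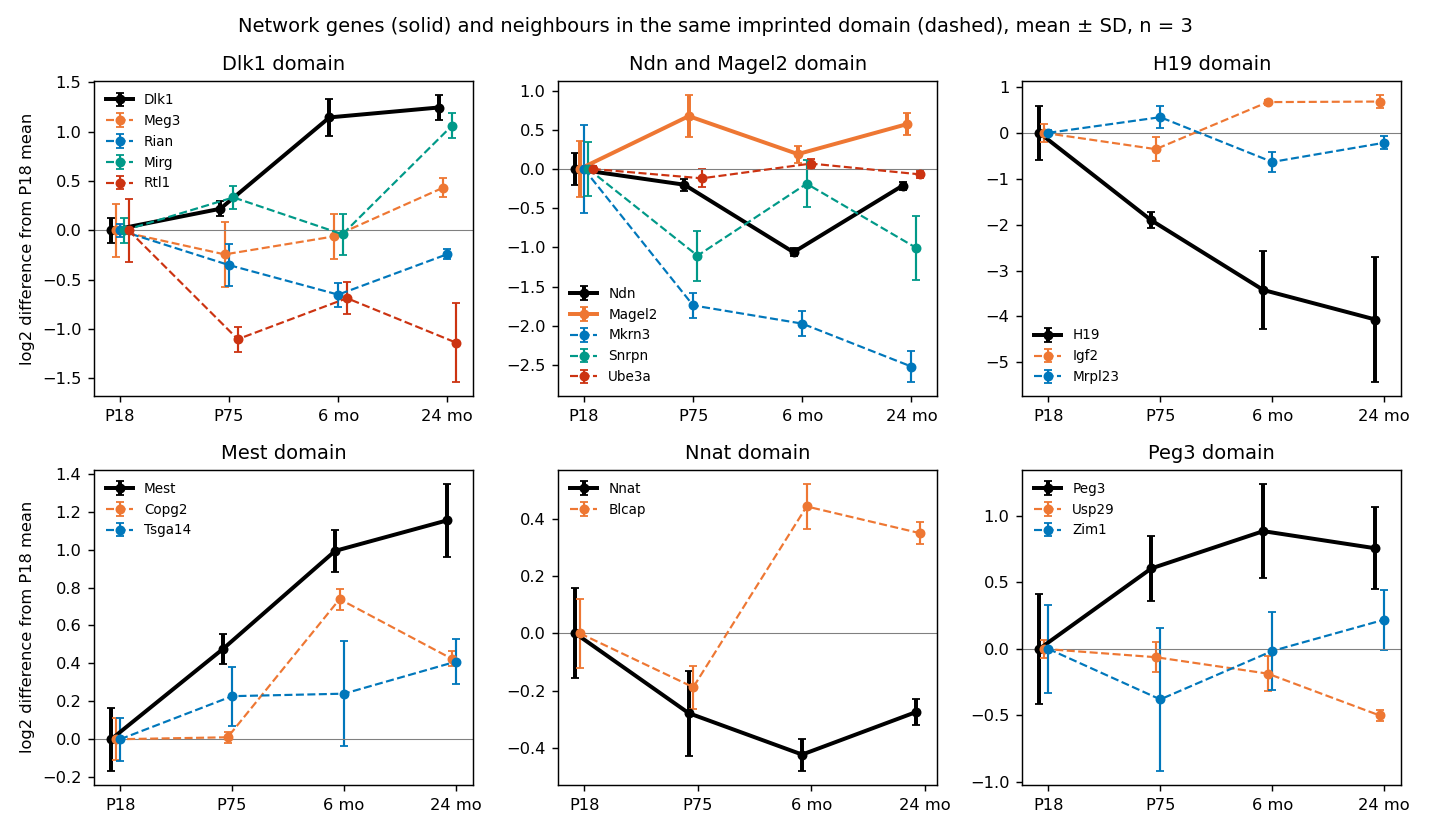
Log2 difference from the P18 mean (vertical axis, mean of log2(normalized read count + 1), bars SD, n = 3) at the 4 ages, for 6 imprinted domains. Solid lines are genes among the 10 and dashed lines their neighbours: Dlk1 stands near 1.25 and Rtl1 near -1.14 at 24 months, and Blcap lies above and Nnat below the P18 level from 6 months on.

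Of 41 further genes listed as imprinted in the mouse, some of them only in placenta, 34 passed the filter. Over the whole span 16 rose and 14 fell, with a median log2 change of 0.19. Cdkn1c, a maternally expressed inhibitor of cell division and a target reported for Plagl1, fell by 1.01 ± 0.13 on the log2 scale from P18 to P75 (limma, adjusted p = 2.22e-05), from 463, 382 and 373 to 194, 216 and 191. Slc22a18, a maternally expressed transporter gene, rose by 1.62 in that step (limma, adjusted p = 0.000249) and by 0.94 from 6 to 24 months (adjusted p = 0.0279). It had only 3 to 6 reads per P18 library, so the size of the first change is uncertain. Peg10, a paternally expressed gene derived from a retrotransposon, rose by 1.45 ± 0.13 from P75 to 6 months (limma, adjusted p = 3.94e-07). Htr2a, a serotonin receptor gene with 6 to 8 reads per P75 library, rose by 2.61 in the same step (limma, adjusted p = 8.58e-05) and fell by 1.62 to 24 months (adjusted p = 0.0148). Dcn (decorin), Pon3 and Slc22a2 rose by 2.53, 2.10 and 2.10 over the whole span. Dcn is also a fibroblast marker, and Slc22a2 had only 3 to 8 reads per P18 library. Commd1 fell by 0.87 and Rasgrf1 rose by 0.81 from P75 to 6 months, and Kcnq1ot1 rose by 0.61 and Gab1 fell by 0.52 from 6 to 24 months. Together with the domain neighbours, 34, 34, 20 and 43 of 54 genes were called in the 4 comparisons, 17, 21, 10 and 23 of them higher. Of all genes tested, 48.8%, 60.6%, 29.3% and 69.0% were called. Leaving out 6-month replicate 1 or 2 reduced the 20 calls from 6 to 24 months to 12 or 13. The calls among all genes tested went from 4287 to 2478 or 2763.

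The machinery that sets and keeps the imprints was represented by 14 genes, of which 13 passed the filter. Over the whole span 1 rose and 7 fell, with a median log2 change of -0.28, where 34.7% of all genes rose and 34.3% fell. From P75 to 6 months 3 rose and 8 fell, where 31.2% of all genes rose and 29.4% fell. The de novo DNA methyltransferase gene Dnmt3a fell by 1.30 over the whole span (limma, adjusted p = 3.60e-09), Uhrf1, which guides maintenance methylation, by 1.68 (adjusted p = 0.000194), and Tet1 and Tet3, which oxidise methylcytosine, by 1.67 (adjusted p = 2.99e-08) and 1.15 (adjusted p = 7.54e-08). Zfp57, which protects imprints in the embryo, fell by 1.10 from P75 to 6 months (limma, adjusted p = 3.50e-05), as did Tet2 by 1.11 (adjusted p = 2.64e-05), Hells by 0.86 and Dnmt3b by 0.64. From 6 to 24 months 3 rose and 3 fell, with Hells at 0.59, Tet2 at 0.45 and Zfp445 at 0.33 among those that rose.

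Known partners and targets of the 10 proteins were listed as 36 genes, and 35 passed the filter. Of these, 9 rose and 12 fell from P18 to P75, 10 rose and 8 fell from P75 to 6 months, 4 rose and 5 fell from 6 to 24 months, and 11 rose and 12 fell over the whole span. Of all genes tested, 48.8%, 60.6%, 29.3% and 69.0% were called in these comparisons, so the list stood near the background. Among the Grb10 partners, the IGF1 receptor gene Igf1r rose by 0.76 (limma, adjusted p = 0.00027) and the insulin receptor gene Insr by 0.68 (adjusted p = 4.01e-05) from P18 to P75, where Grb10 had a log2 change of -0.16. Irs2, an adaptor of the same receptors, rose by 2.78 ± 0.34 from P75 to 6 months (limma, adjusted p = 6.07e-06) and fell by 1.97 ± 0.34 to 24 months (limma, adjusted p = 0.00178). Its counts were 184, 126 and 128 at 6 months and no more than 54.6 at any other age. In the Notch pathway, to which Dlk1 is related, the ligand gene Jag1 rose by 1.26 from P18 to P75 (limma, adjusted p = 5.31e-06). The target Hes1 fell by 0.93 from P75 to 6 months (limma, adjusted p = 0.000131), the step in which Dlk1 rose. Another target, Hes5, was at 280, 212 and 230 at P75 and at 222, 249 and 229 at 6 months. A link of these genes to Dlk1 was not tested. Cdkn1a, a cell cycle inhibitor gene listed for Plagl1, fell by 1.36 from P18 to P75 (limma, adjusted p = 1.01e-05), and Adcyap1r1, a receptor gene that Plagl1 induces, rose by 0.74 from P75 to 6 months (adjusted p = 2.55e-05), where Plagl1 fell by 0.31. Atp2a2, the calcium pump gene that neuronatin is thought to restrain, rose by 1.37 over the whole span (limma, adjusted p = 3.84e-08). Siah1b, listed for Peg3, fell by 0.81 from P75 to 6 months (limma, adjusted p = 0.00199). Asns, a gene induced downstream of the Gcn2 kinase that Impact inhibits, fell by 0.37 from 6 to 24 months (limma, adjusted p = 0.0391), where Impact had a log2 change of -0.07.

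Several of the 10 genes are known for strong expression in the hypothalamus, and markers of other cells moved in the same libraries. Of 15 hypothalamic neuron markers tested, 11 rose and none fell from P18 to P75, 2 rose and 2 fell from P75 to 6 months, 11 rose from 6 to 24 months, and 13 rose over the whole span, where 25.9%, 31.2%, 16.6% and 34.7% of all genes rose. The list was led over the whole span by Oxt (log2 change 3.39), Avp (3.07), Pmch (2.60) and Hcrt (2.17). The summed normalized read count of the list was 4373 to 8480 at P18, 8417 to 11046 at P75, 8538 to 9428 at 6 months, and 12370 to 15093 at 24 months. Sst and Npy made up most of that sum, so it mostly follows these genes and is not read as an amount of hypothalamic RNA. Sst was at 2317 to 5128 at P18 and 6395 to 8060 at 24 months, and Npy at 1111 to 2142 and 2616 to 2905. The P18 library with the highest sum was replicate 3, the library with the highest P18 counts of 8 of the 10 genes. Its sum of 8480 held 5128 of Sst and 2142 of Npy. Avp, Pomc, Crh, Cartpt and Nkx2-1 were also highest among the P18 libraries in replicate 3. Hcrt, Pmch, Gal, Ghrh and Sim1 were lowest there. Peg3, Magel2 and Mest rose from P18 to P75 with this list, while Plagl1 and Nnat fell. Dlk1, Mest, Grb10 and Impact rose from P75 to 6 months, where its sum stayed within the P75 range. Ndn and Magel2 fell in that same step (log2 changes -0.86 and -0.48). Ndn rose from 6 to 24 months, a step in which the list rose again. From P18 to P75, where the list rose too, Ndn had a log2 change of -0.20 and was not called. Over the whole span it fell by 0.21 while the list rose. No hypothalamic marker was at 0 in a whole age group. The part of these cells in the changes of the 10 genes was not tested.

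Other lists moved too. Markers of general neurons summed to 208917 to 249596 at P18 and 219207 to 233337 at 24 months, and to 234210 to 268525 at P75 and 234571 to 246210 at 6 months. In that step, the one in which Dlk1, Mest, Grb10 and Impact rose, 11 of 15 rose and 3 fell. There, 31.2% of all genes tested rose and 29.4% fell. The neuronal rises were led by Syt1 (log2 change 2.34) and Slc17a7 (1.41), and Snap25 was among those that fell (-0.68). Choroid plexus and ependymal markers summed to 12900 to 15029 at P18 and 42752 to 47450 at 24 months, of which Ttr alone was 41611 to 46264. Of the 9 markers 5 rose and 3 fell over the whole span: Ttr rose by 1.73 on the log2 scale, and the ependymal genes Foxj1, Ccdc153 and Dynlrb2 had changes of -0.66, -1.36 and -1.29. Mural cell and fibroblast markers summed to 1689 to 2242 at P18 and 3620 to 4212 at 24 months. In choroid plexus and meninges Igf2 is known to be expressed. Microglial sums went from 4518 to 5831 at P18 to 11969 to 14135 at 24 months, and 8 of 9 markers rose. Of 9 proliferation markers tested, 8 fell and 1 rose over the whole span, led by Top2a (-3.07). Over that span 34.7% of all genes tested rose and 34.3% fell. Of 8 markers of oligodendrocyte precursors 5 fell and 1 rose in that span, led by Gpr17 (-2.71). On that list Pdgfra was at 629 to 779 at P18 and 708 to 769 at 24 months. Cspg4 was at 149 to 212 and 137 to 187, and Lhfpl3 at 1070 to 1164 and 1581 to 1667. Over all libraries, astrocyte markers summed to 109875 to 158422 and endothelial markers to 715 to 963. Alas2 was the only erythroid marker tested and fell by 3.30 from P18 to P75, and the 4 hemoglobin genes were listed at 0 in all libraries. The defining markers of the labelled tissue were present: none of the 10 myelin genes was at 0 in an age group. Of these 10 genes, 8 fell from P18 to P75, where 22.9% of all genes tested fell. Their sum was 2483490 to 6203520 at P18 and 1282330 to 2378100 later. The part of these cell types in the changes of the 10 genes was not tested.

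**Figure D5:**
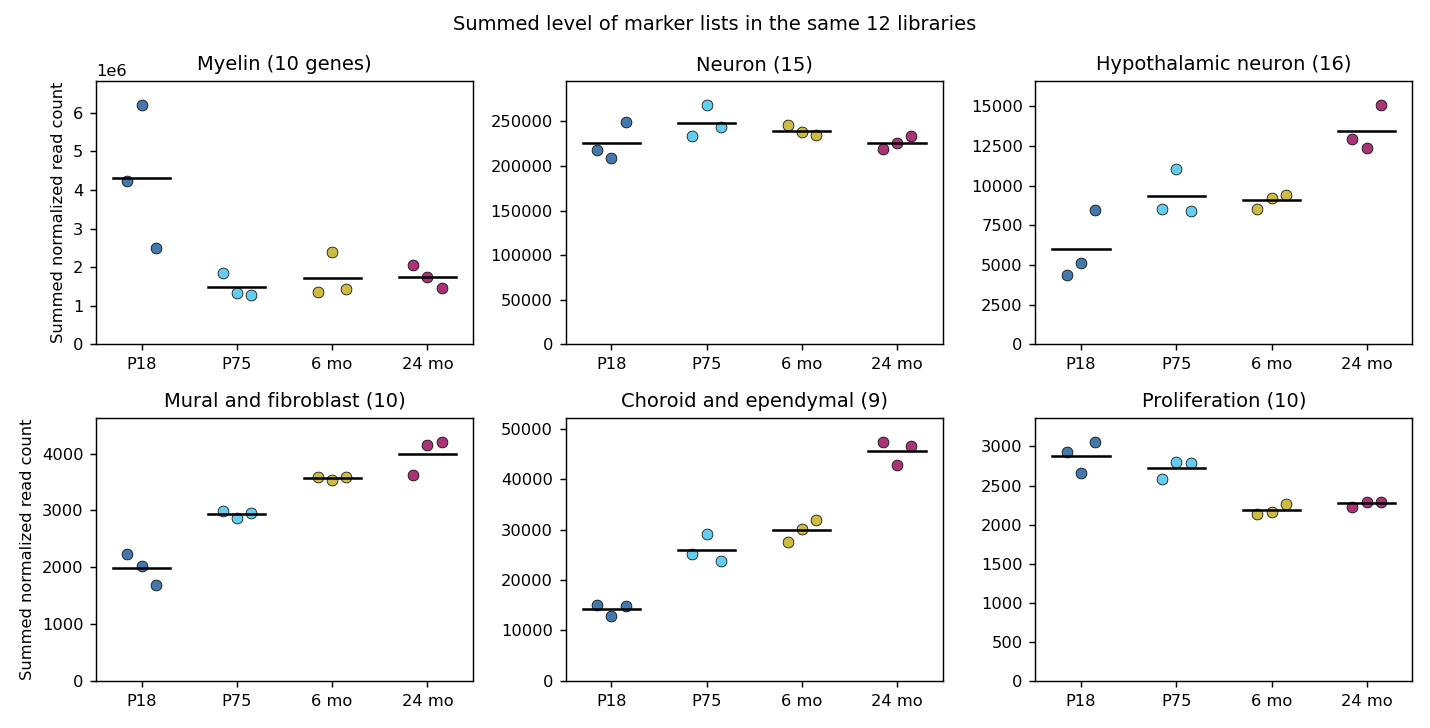
Summed normalized read count (vertical axes, linear, from 0) of 6 marker lists in each of the 12 libraries by age, with a line at the mean of 3. The hypothalamic sum is 4373 to 8480 at P18 and 12370 to 15093 at 24 months, the choroid and ependymal sum 12900 to 15029 and 42752 to 47450, and the myelin sum is highest at P18. Of the hypothalamic sum, Sst alone is 2317 to 5128 at P18 and 6395 to 8060 at 24 months. That panel mostly follows Sst and Npy and is not read as an amount of hypothalamic RNA.

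Across the 12 libraries, Dlk1 and Mest had the highest correlation of any pair among the 10 genes (Pearson r = 0.957 on log2(normalized read count + 1)), and Dlk1 and H19 the most negative (r = -0.853). The 12 points share 4 ages and their libraries, and any pair of genes that changes with age is correlated. Ndn had r = 0.20 with Magel2 next to it and r = 0.76 with Nnat. Among 11296 other genes whose mean reached 100, the 3 most like Dlk1 were Slc35a2 (0.992), Rtn3 (0.991) and Scn3b (0.990), and the 3 most like Mest were Slc38a2 (0.992), Stt3b (0.991) and Pcdh20 (0.990). For Ndn they were 5033414D02Rik (0.962), Olfr856-ps1 (0.948) and Surf2 (0.944), and for Impact Sec24b (0.975), Tmtc2 (0.973) and Klhl13 (0.970). Plagl1 was most like Adh5 (0.971), Arhgap24 (0.965) and Ldb2 (0.962), and H19 like Fam107b (0.963), Gtf2e2 (0.960) and Cdk14 (0.960). Peg3 came closest to Dopey1 (0.952), Ubr3 (0.910) and Tmem186 (0.908), Grb10 to Tnpo1 (0.958), Mcart6 (0.956) and Sgip1 (0.953), Nnat to Fbf1 (0.954), Farsa (0.949) and Vps25 (0.945), and Magel2 to Urb1 (0.935), BC018507 (0.935) and Mphosph9 (0.933).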

How the data were processed

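RNA of purified mouse myelin (4 ages, 3 libraries each, grouped by the labels) was sequenced on an Illumina instrument. The authors aligned reads to mm9 with TopHat (TopHat2 2.0.8 in the submitters' notes), counted them per gene with HTSeq 0.5.4p1 and normalized each library by its DESeq size factor. The deposited signal, a normalized read count, is linear and not corrected for length. The counting annotation and strand setting are not given in the sources used here. Within a library all values (100% within 0.006) were whole multiples of 1 read, which gave the reads.

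Genes with a mean of at least 10 were fitted with limma 3.58.1 (trend, empirical Bayes; R 4.3.3) on log2(normalized read count + 1), age only, all libraries, false discovery rate 0.1. The script was tested on simulated data. Alternatives were edgeR 4.0.16 and DESeq2 1.42.0 on the recovered reads, other pseudocounts, filters and scalings, a fit of 2 ages, a replicate block, and each library left out. The numbers come from the labels, and the mice differed: same-numbered libraries of P75 and 6 months deviated together from their group means (r = 0.161, 0.101 and 0.187), and in every other pair of ages at least 1 number had an r under 0.1. Exon lengths came from GENCODE vM1 (NCBIM37). Members and lists were chosen with earlier results of these data known. Named by rule were all 10 genes, every domain neighbour past the filter, per other list the 4 largest called changes, and the 3 genes most correlated with each member. Not every gene that this rule names is reported here. Snap25, Foxj1, Ccdc153 and Dynlrb2 were named after their values were seen.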

Additional observations from a re-analysis of the deposited data

How the results depend on the processing

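Of the 10 genes, 6, 8, 1 and 9 were called from P18 to P75, P75 to 6 months, 6 to 24 months and P18 to 24 months. From 6 to 24 months the count of 1 became 3 in a fit of the 2 ages alone, 2 with edgeR and 2 with DESeq2, and 1 to 3 when single libraries were left out, with Magel2 or Grb10 as the added genes. Of the 14634 genes tested, 5401, 4585 and 4354 were called in the fit of 2 ages, with edgeR and with DESeq2. The fit of all libraries called 4287, and 2478 to 5323 were called with single libraries left out. The 20 calls among other imprinted genes in that comparison became 13 after scaling to the same total, and 12 to 24 with single libraries left out. After that scaling 3007 of all genes tested were called. The P18 to P75 change of Impact, not called, turned from -0.0389 to 0.0864 after scaling to the same total and ranged from -0.1033 to 0.0128 with libraries left out. The 6 to 24 month change of Peg3, also not called, ranged from -0.3033 to 0.0624. A filter at a mean over 100 leaves out H19. With single libraries left out the other counts were 4 to 8, 7 to 8 and 8 to 9. With the replicate block 6, 8, 1 and 9 genes were called, and no change of a member gained or lost its call. At 0 to 5 normalized counts per library, the depth limits what can be said of H19 beyond P75. The causes of these differences between settings were not tested.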
